A study of Mus musculus with 2 samples.

Results

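The oligodendrocyte lineage genes described here are 10 genes that mark successive steps from the oligodendrocyte progenitor to the myelinating cell: Olig1, Olig2, Nkx2-2, Pdgfra, Cspg4, Gpr17, Bcas1, Enpp6, Opalin and Mag. They were taken by symbol from the 32285 mouse genes of 2 single-cell libraries, and all 10 are in the feature tables. Each library came from mouse brain that carried GL261, an implanted mouse glioma line used as a model of glioblastoma, and was collected 24 days after implantation. The host genotype of one is given as C57BlL6 WT and of the other as Cacna1H-/-, which lacks both copies of the gene for the T-type calcium channel Cav3.2. The implanted line was the same in both. The number, age and sex of the animals behind each library and the strain of the Cacna1H-/- hosts are not stated in the labels.

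Oligodendrocytes are the cells that wrap axons of the central nervous system in myelin. Their progenitors divide in response to platelet-derived growth factor through its receptor Pdgfra and carry the proteoglycan NG2, the product of Cspg4. The basic helix-loop-helix factors Olig1 and Olig2 and the homeodomain factor Nkx2-2 direct the lineage. Cells that leave the progenitor state pass through a short stage marked by Gpr17, Bcas1 and Enpp6, and then make membrane proteins of mature myelin such as Opalin and Mag. Gliomas often keep part of this programme, and GL261 cells are tumour cells, so the question asked of these genes is which steps the tumour cells carry and how they compare with the oligodendrocytes of the same tissue.

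The 2 libraries held 54567114 and 103281480 UMIs (unique molecular identifiers, each standing for 1 captured transcript) in 7382 and 8369 barcodes. Barcodes with at least 500 mouse genes and at most 10% mitochondrial UMIs, less called doublets, left 3033 cells labelled wild type and 6410 labelled knockout, with medians of 12179 and 10852.5 UMIs. The libraries shared 21 barcodes, of which 6 were kept cells in both. Cacna1h, the targeted gene, had 8 UMIs over all kept cells with the wild type label and 158 over those with the knockout label (0.159 and 1.64 CPM, UMIs per 1000000 mouse UMIs). Its level was thus higher under the knockout label (1.39 to 1.91 against 0.0689 to 0.314), and the reason was not tested. The 3' counts may come from beyond the deletion, so they do not test it. Whether the labels match the hosts was not tested either. Genes of the sex chromosomes also divided the libraries: in T and NK cells, 756 of 909 cells had a Y-linked UMI in the WT-labelled library and 412 of 2269 in the KO-labelled library. The libraries are therefore named by their labels only, WT-labelled and KO-labelled. With 1 library per group no difference between them can be tested, the labelled genotype and the library cannot be told apart, and every interval below is an exact 95% interval for counting error only.

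Cells were grouped by clustering that left the 10 genes out, and clusters were named from marker genes that include none of them. Tumour-like cells (680 and 1079, with the wild type label first here and in all pairs of values) fell in clusters 2, 5, 8 and 15 and showed 10 of 12 tumour markers at 20 or more CPM in each library. Oligodendrocyte-like cells numbered 30 and 106 and showed all 12 oligodendrocyte markers, with summed levels of 35684 and 32071 CPM. In tumour-like cells the same 12 markers summed to 666 and 319, and Mobp, Ermn and Hapln2 stood below 1 CPM in both libraries. No cluster was named for host oligodendrocyte progenitors, although the tumour-like clusters carried 4 or 5 of the 8 progenitor markers, so host progenitors were not separated from tumour cells here. Clusters are called tumour-like by markers only.

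The regulators of the lineage were counted across the tumour-like cells of both libraries. Olig1 stood at 438 CPM (429 to 446) and 634 (625 to 642), and 596 of 680 and 983 of 1079 tumour-like cells had at least 1 UMI. In oligodendrocyte-like cells Olig1 stood at 497 and 418, so its level in the tumour was 0.882 times (0.756 to 1.04) and 1.51 times (1.39 to 1.65) that of the oligodendrocyte-like cells. Olig2 stood at 231 CPM (225 to 238) and 145 (141 to 149) in tumour-like cells, against 72.7 (46.6 to 108) and 84.4 (69.7 to 101) in oligodendrocyte-like cells. Olig2 was thus 3.18-fold (2.14 to 4.97) and 1.72-fold (1.43 to 2.09) higher in the tumour-like cells, while Olig1 was not higher there in the WT-labelled library. Nkx2-2 stood at 19.4 (17.6 to 21.3) and 31.0 (29.1 to 32.9) in tumour-like cells and at 33.3 (16.6 to 59.6) and 48.1 (37.2 to 61.4) in oligodendrocyte-like cells, where its intervals in the WT-labelled library overlap.

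Elsewhere the regulators were lower. The astrocyte-like cluster, which was led in part by mural genes and also carried tumour markers, held Olig1 at 27.8 and 65.7 CPM and Olig2 at 25.2 and 48.1. In T and NK cells, which should lack them, Olig1 stood at 3.18 and 5.04 CPM and Olig2 at 2.08 and 1.54. After each cell was thinned to 2000 UMIs, which kept 675 and 1047 tumour-like and 886 and 2219 T and NK cells, Olig1 was detected in 46.2% (42.4 to 50.1) and 59.5% (56.5 to 62.5) of tumour-like cells and in 0.903% and 1.17% of T and NK cells. Before thinning the tumour-like shares were 87.6% and 91.1%, at median depths of 30834.5 and 26626 UMIs against 7011 and 7686 in T and NK cells. Olig2 also had 8 UMIs in 27 and 35 UMIs in 97 neuroblast-like cells, or 25.1 and 27.8 CPM. In B cells and dendritic cells each of the 10 genes stood at 8.58 CPM or less in both libraries, and the 20 and 36 endothelial-like cells held 4 and 2 Enpp6 UMIs and 0 and 11 Cspg4 UMIs.

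The progenitor genes Pdgfra and Cspg4 separated tumour-like from oligodendrocyte-like cells. Pdgfra stood at 32.1 CPM (29.8 to 34.5) and 22.04 (20.5 to 23.7) in tumour-like cells and had 0 UMIs in oligodendrocyte-like cells of both libraries. With 3 counts standing for the 0, it was at least 3.53-fold and at least 9.92-fold higher in the tumour. Cspg4 stood at 77.5 (74.0 to 81.3) and 92.6 (89.3 to 95.9) in tumour-like cells, with 0 and 5 UMIs in oligodendrocyte-like cells. It was thus 8.54-fold (lower limit 6.94, with 3 counts standing for the 0) and 24.99-fold (10.7 to 77.0) higher. The largest Cspg4 level outside the tumour, 217 and 70.4 CPM, was in an astrocyte-like cluster of 24 and 55 cells that also carried 8 tumour markers and was led by the mural genes Acta2 and Rgs5 among others, and Cspg4 is known to be made by pericytes.

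The genes of the committed stage did not behave as a group. Gpr17, a receptor that marks newly committed cells, stood at 46.6 (43.8 to 49.5) and 23.0 (21.4 to 24.7) CPM in tumour-like cells, with 0 and 1 UMIs in oligodendrocyte-like cells. Bcas1, a gene of early myelinating cells, was at 833 (821 to 845) and 697 (688 to 706) in tumour-like cells and close to that level in oligodendrocyte-like cells, at 663 (578 to 757) and 633 (592 to 677). Its tumour level was 1.26 times (1.10 to 1.44) and 1.10 times (1.03 to 1.18) the oligodendrocyte-like level, and it was counted in 645 of 680 and 1033 of 1079 tumour-like cells. Enpp6, an enzyme of newly formed oligodendrocytes, was by contrast almost uncounted in the tumour, with 8 UMIs in 7 cells and 12 UMIs in 11 cells, or 0.353 and 0.366 CPM. T and NK cells held Enpp6 at 0.244 (0.0296 to 0.882) and 0.318 (0.128 to 0.654), so the tumour level lay within the counting error of a class that should lack it. Oligodendrocyte-like cells held it at 194 (149 to 247) and 153 (132 to 175).

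**Figure D1:**
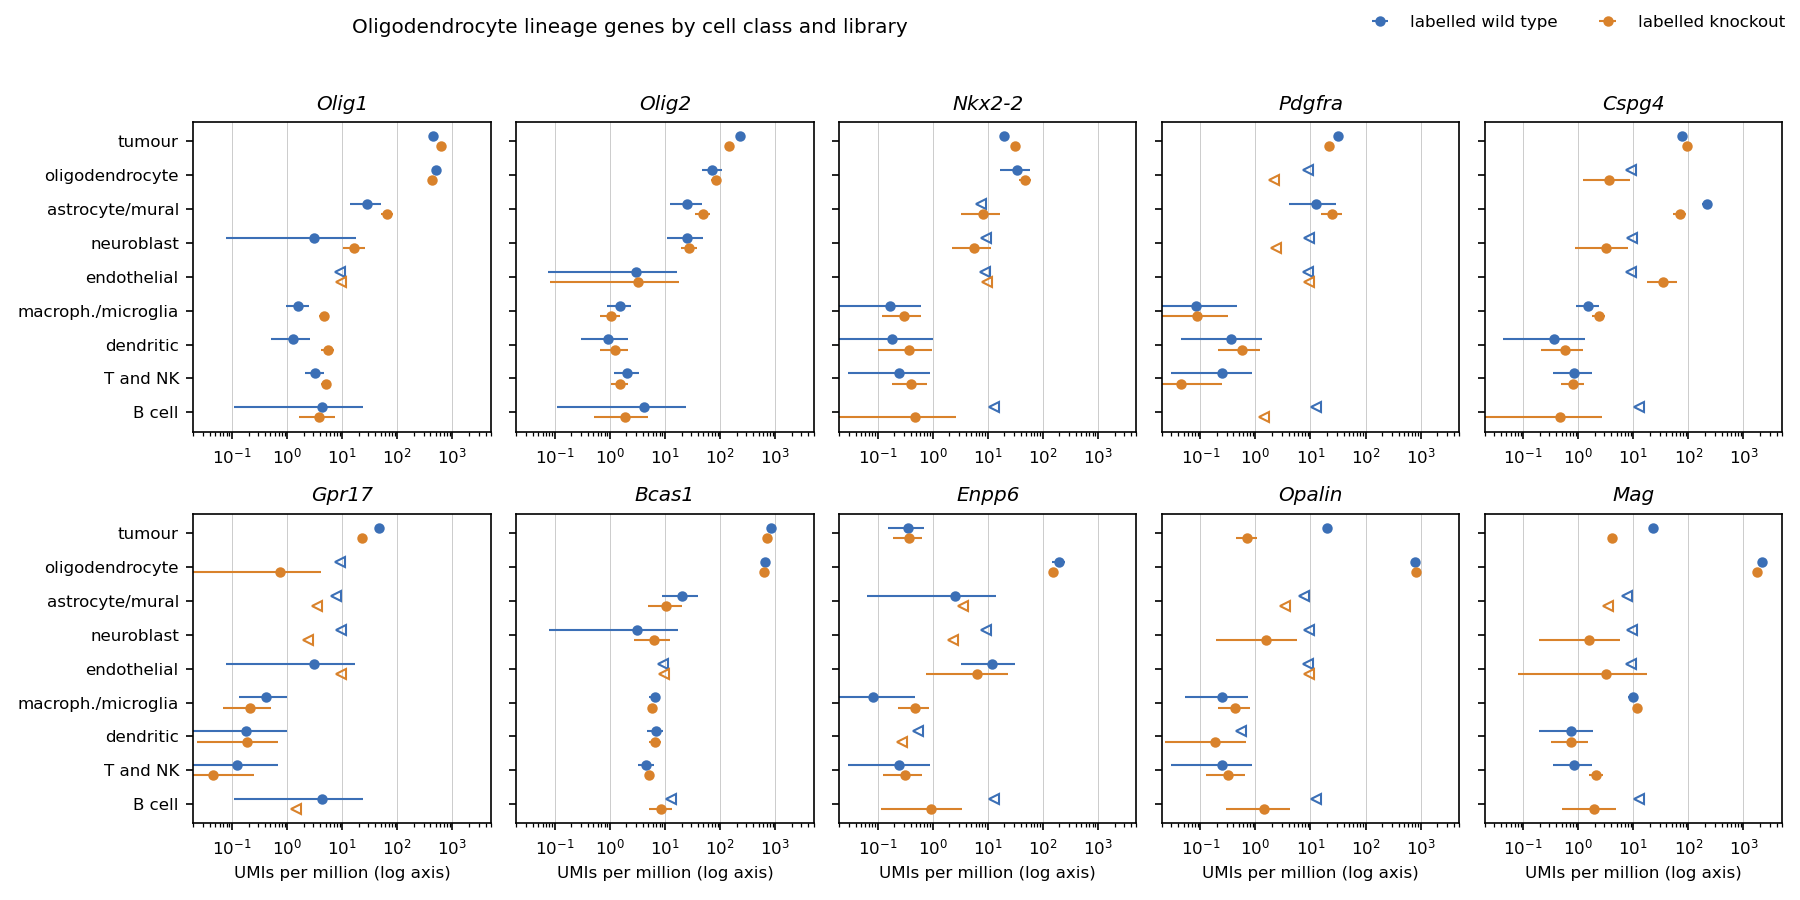
Level of each of the 10 genes in every named cell class by label (wild type blue, knockout orange), in CPM on a log axis with exact 95% Poisson bars, where an open triangle marks a class with 0 UMIs at the level of 3 counts. Olig1, Olig2, Cspg4, Pdgfra, Gpr17 and Bcas1 are high in tumour-like cells, Enpp6, Opalin and Mag are high in oligodendrocyte-like cells, and Opalin and Mag stand apart between the libraries in tumour-like cells.

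Opalin and Mag, the 2 genes of mature myelin, differed most between the libraries. Opalin encodes a transmembrane glycoprotein of oligodendrocytes, and Mag encodes the myelin-associated glycoprotein that faces the axon. Their upstream sequences are shown beside that of Enpp6, because all 3 were abundant in oligodendrocyte-like cells while in the WT-labelled library Opalin and Mag, unlike Enpp6, exceeded their T and NK cell level in the tumour. Each line gives 250 bases before an annotated start from RefSeq (GRCm38.p6), 5′ to 3′ on the strand of the gene, with E-boxes in capitals (letters CANNTG, the core bound by basic helix-loop-helix factors, which reads the same on both strands). Opalin lies on the minus strand of chromosome 19 (window chr19:41077114-41077363), Mag on the minus strand of chromosome 7 (chr7:30914864-30915113, the first of 3 starts listed) and Enpp6 on the plus strand of chromosome 8 (chr8:46986637-46986886).
Opalin: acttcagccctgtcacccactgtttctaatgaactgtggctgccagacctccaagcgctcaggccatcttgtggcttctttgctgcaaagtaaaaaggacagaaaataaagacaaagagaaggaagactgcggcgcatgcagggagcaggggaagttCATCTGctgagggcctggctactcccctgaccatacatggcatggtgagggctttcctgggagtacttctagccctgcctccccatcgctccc
Mag: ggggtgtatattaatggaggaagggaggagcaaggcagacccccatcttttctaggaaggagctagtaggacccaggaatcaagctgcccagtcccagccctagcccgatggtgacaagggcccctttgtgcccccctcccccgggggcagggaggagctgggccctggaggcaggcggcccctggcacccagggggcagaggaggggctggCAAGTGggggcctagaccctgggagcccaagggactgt
Enpp6: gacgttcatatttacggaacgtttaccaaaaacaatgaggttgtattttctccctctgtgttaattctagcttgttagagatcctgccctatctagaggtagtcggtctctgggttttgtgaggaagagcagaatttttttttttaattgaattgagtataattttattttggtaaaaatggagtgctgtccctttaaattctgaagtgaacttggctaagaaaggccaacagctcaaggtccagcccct

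The Opalin window held 1 E-box, at -93 from the start, the first Mag window 1, at -38, and the Enpp6 window 0, while 66.2% of 32851 windows of this length held at least 1. The core CTGGNAC of the myelin regulatory factor Myrf, searched on both strands, occurred 2 times in the first Mag window and 0 times in those of Opalin and Enpp6, against 16.1% of all windows with a match. The SOX core ACAAAG, also on both strands, occurred once in the Opalin window (-139) and once in the first Mag window (-126), against 16.5% of all windows. The Mag windows differ: that of the second listed start, which overlaps the first, held 0 E-boxes, 2 Myrf cores and 1 SOX core, and that of the third held 2 E-boxes and 0 of the others. These matches are letters in a window and were not measured as bound. Of the 10 genes 7 matched a window in the RefSeq table, and Olig1, Gpr17 and Bcas1 did not.

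In tumour-like cells Opalin had 448 UMIs in the WT-labelled library and 23 in the KO-labelled library, or 19.8 CPM (18.0 to 21.7) and 0.701 (0.444 to 1.05). Mag had 520 and 136 UMIs, or 22.92 (20.996 to 24.98) and 4.15 (3.48 to 4.90). In oligodendrocyte-like cells the libraries were much closer: Opalin stood at 790 (697 to 892) and 831 (783 to 881), with overlapping intervals, and Mag at 2174 (2018 to 2339) and 1772 (1701 to 1844), 1.23-fold lower (1.13 to 1.33). Tumour-like Opalin was therefore 2.499% (2.14 to 2.92) of the oligodendrocyte-like level in the WT-labelled library and 0.0844% (0.0533 to 0.127) in the KO-labelled library, and tumour-like Mag 1.05% (0.940 to 1.18) and 0.234% (0.195 to 0.278). In the KO-labelled library the Opalin level in tumour-like cells was close to that in T and NK cells, 0.318 (0.128 to 0.654), with overlapping intervals.

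Between the libraries, tumour-like Opalin was 28.2-fold lower (18.5 to 44.9, log2 ratio -4.82) and Mag 5.53-fold lower (4.57 to 6.73, log2 ratio -2.47) in the KO-labelled library. Gpr17 was 2.02-fold lower (1.84 to 2.23) and Olig2 1.59-fold lower (1.53 to 1.66). The Olig2 ratio is that of the pooled cells, and its direction differed between the tumour-like clusters, as given below. Nkx2-2 was the only one of the 10 that was 1.5-fold or more higher in the KO-labelled library, at 1.60-fold (log2 0.52 to 0.84). This ratio too is of pooled cells. Its log2 ratio was 1.16 in tumour-like cluster 5 (18 and 421 UMIs), and 0.39, 0.54 and 0.34 in clusters 2, 8 and 15. The part of the cluster shares in it was not tested. The other genes stayed inside 1.5-fold, with log2 ratios of 0.53 for Olig1, 0.26 for Cspg4, -0.26 for Bcas1 and -0.54 for Pdgfra. Enpp6 had too few UMIs for a ratio to carry weight (0.05, -1.36 to 1.55).

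Thus 4 of the 10 genes were 1.5-fold or more lower and 1 was higher. Of the 12598 genes with at least 100 UMIs in tumour-like cells, 7.18% were as much lower and 10.6% as much higher, and 9 of the 10 genes passed that minimum. The median log2 ratio was -0.40 over the 10 genes and -0.54 over the 9, against 0.0063 over all measured genes, whose quartiles were -0.23 and 0.27. The 10 did not share a direction, since the regulators Olig1 and Nkx2-2 were higher and both myelin genes lower in the KO-labelled library. At the minimum of 30 UMIs that is used for the clusters, the same 9 genes were measured, and 8.93% of all genes were lower and 14.2% higher.

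**Figure D2:**
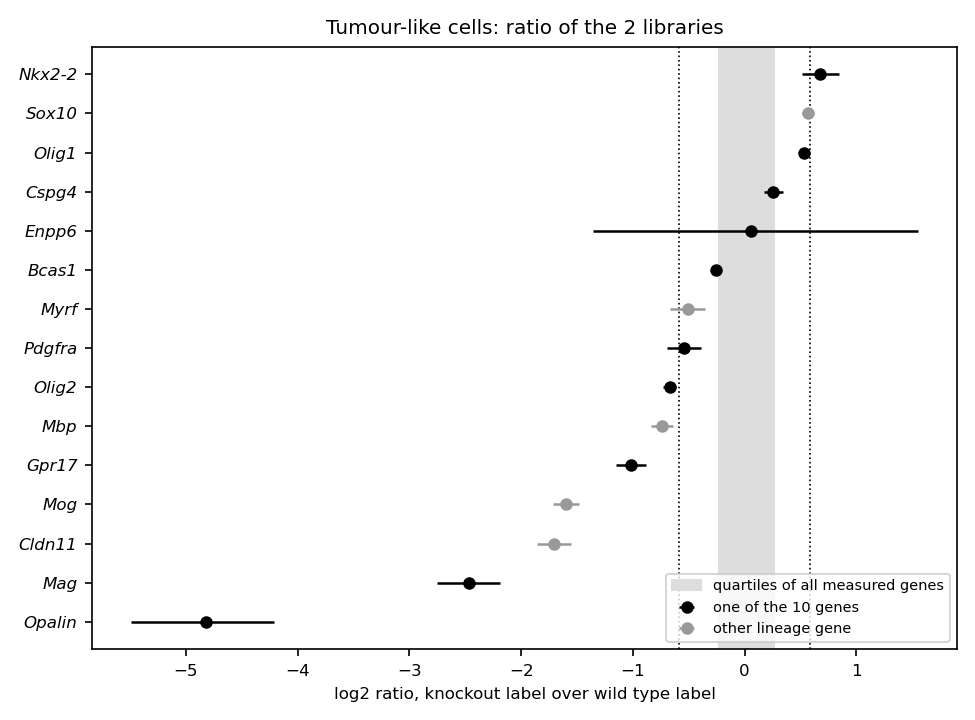
Log2 ratio of the knockout label over the wild type label, in tumour-like cells, with exact 95% intervals for counting error, for the 10 genes (black) and other lineage genes (grey). Dotted lines mark 1.5-fold and the grey band the quartiles of all measured genes (-0.23 to 0.27), and Opalin (-4.82) and Mag (-2.47) lie farthest to the left.

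Several of these values depended on which tumour-like cells were counted. Under 18 alternative settings the Opalin log2 ratio ran from -6.89 to -2.86 and was 1.5-fold or more lower in each. Mag was as much lower in 17 of 18, Gpr17 in 16 and Olig2 in 11, and Nkx2-2 was as much higher in 15. When tumour-like cells with a UMI of Mog, Mobp or Cldn11 were left out, which kept 240 and 621 cells, Mag had 3 and 17 UMIs and its log2 ratio was 0.98, Gpr17 was at -0.09 and Opalin at -3.29 (17 and 5 UMIs). Of the 520 and 136 Mag UMIs, all but 3 and 17 thus lay in cells with a UMI of another of these myelin genes.

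The tumour-like clusters differed in their lineage genes, and the libraries held them in different shares. Cluster 2 held 247 and 443 cells, cluster 5, led by Serpina3n and Col2a1, 58 and 400, cluster 8, led by Cadm2 and Cntn1, 260 and 108, and cluster 15 held 115 and 128. Mag followed one order in both libraries: it stood at 46.2 CPM in cluster 2, 27.1 in cluster 15, 13.9 in cluster 5 and 1.95 in cluster 8 in the WT-labelled library, and at 5.90, 4.53, 2.43 and 1.14 in the KO-labelled library. In the WT-labelled library clusters 15 and 5 overlapped within counting error, and in the KO-labelled library each cluster overlapped the next in this order. Pdgfra took a different order, with 45.7 in cluster 15, 35.7 in cluster 8, 18.5 in cluster 5 and 18.0 in cluster 2 in the WT-labelled library, and 27.2, 48.3, 24.6 and 10.8 in the same clusters in the KO-labelled library. Cluster 2, where Mag was highest, thus had the lowest Pdgfra level in both libraries, though in the WT-labelled library cluster 5 lay within its counting error.

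By count, clusters 2 and 15 held most of the differences between the libraries. In cluster 2, of the 9 genes with at least 30 UMIs, 5 were 1.5-fold or more lower in the KO-labelled library (Pdgfra, Gpr17, Bcas1, Opalin and Mag) and 0 higher, where 7.76% of all genes were lower and 7.5% higher. In cluster 15, 6 of 9 were lower (the same 5 and Olig2) and 0 higher, against 7.94% and 12.6%. In cluster 5 only Mag of 8 was lower and only Nkx2-2 higher, against 9.31% and 10.2%. In cluster 8 only Opalin of 8 was lower and 0 were higher, against 8.07% and 10.2%. Opalin had 109 UMIs there in the WT-labelled library and 0 in the KO-labelled library. With 3 counts standing for the 0 it was 14.7-fold lower (lower limit 11.7). Whether the clusters differ from one another in these ratios was not tested.

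Gpr17 differed between the libraries in some clusters and not detectably in others. In cluster 2 it stood at 61.5 and 10.2 CPM, 6.05-fold lower (4.98 to 7.39), and in cluster 15 at 21.1 and 2.93, 7.20-fold lower (4.47 to 12.2). In cluster 5 it stood at 43.9 and 47.1, and in cluster 8 at 52.2 and 48.8, where the intervals of the ratio include no difference. Bcas1 was 1.91-fold lower (1.85 to 1.97) in cluster 2 and 2.04-fold lower (1.93 to 2.17) in cluster 15, but 1.46-fold higher in cluster 8. Olig1 was higher in the KO-labelled library in all 4 clusters, by log2 ratios of 0.22 to 0.35. Olig2 was lower there in clusters 2 and 15, at log2 ratios of -0.56 (-0.65 to -0.46) and -1.002 (-1.12 to -0.88). In cluster 8 Olig2 was higher, at 0.29 (0.18 to 0.40), and in cluster 5 its interval included 0 (0.20, -0.15 to 0.58). Cluster 5 held the least Olig2, 79.8 and 91.96 CPM, in 58 and 400 cells. The part of these cluster shares in the pooled Olig2 ratio was not tested. In the annotation Gpr17 overlaps Lims2 on the opposite strand, and Olig1, Nkx2-2, Pdgfra, Bcas1 and Enpp6 also overlap opposite-strand genes. The labels do not say whether counting used the strand, and mixing of reads was not tested.

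**Figure D3:**
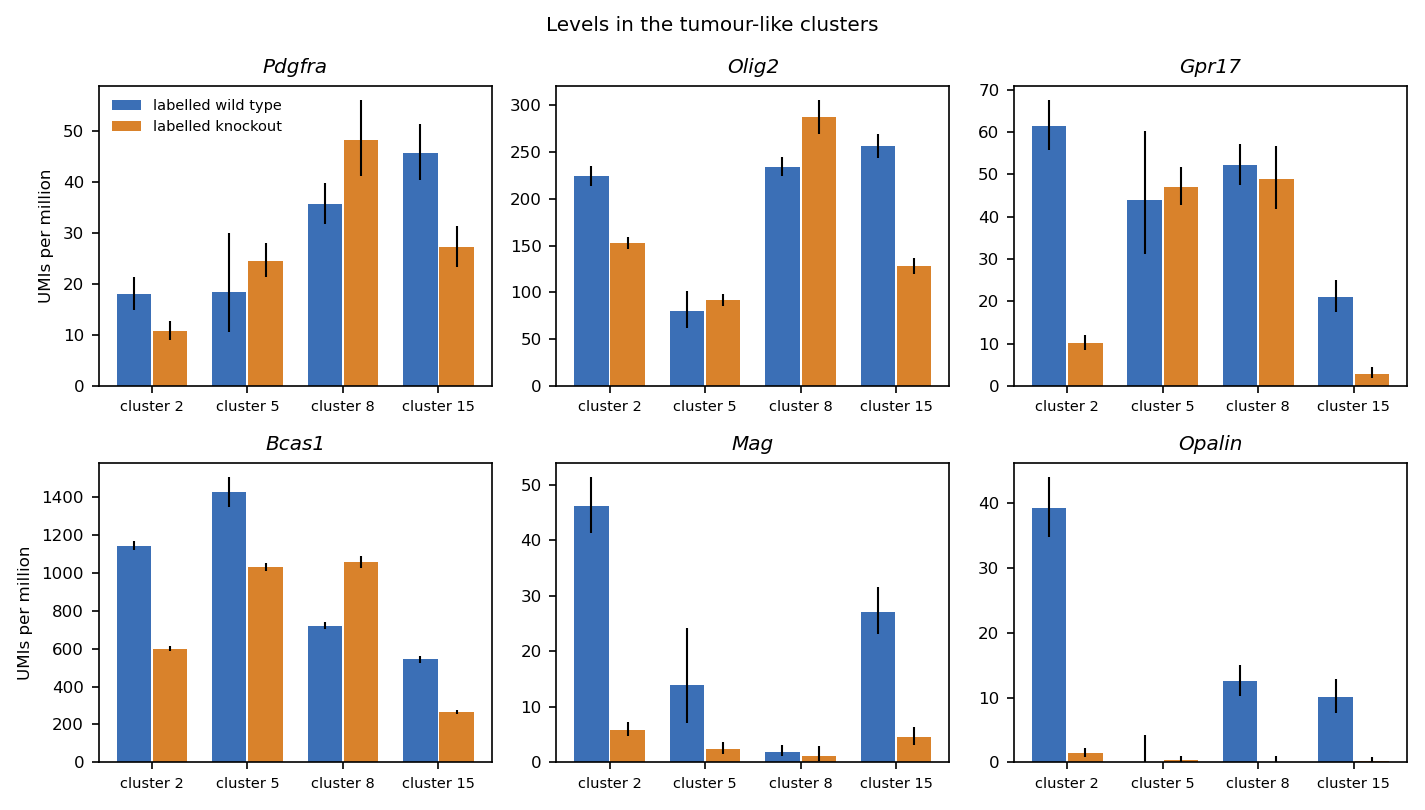
Levels of 6 of the genes in the 4 tumour-like clusters, in CPM on linear axes from 0, with bars by label (wild type blue, knockout orange) and exact 95% Poisson intervals. Gpr17, Bcas1 and Mag are lower in the KO-labelled library in clusters 2 and 15, Gpr17 is alike in clusters 5 and 8, and Pdgfra is higher in cluster 8 and lower in clusters 2 and 15.

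In oligodendrocyte-like cells the libraries were close for these genes. Of the 7 with at least 30 UMIs, 0 were 1.5-fold or more lower and 0 higher, where 9.42% of all genes in these cells were lower and 16.5% higher. With only 7 genes, counts of 0 do not set them apart from all genes. The median log2 ratio of the 7 was -0.07, and those of Opalin (0.07, -0.12 to 0.27) and Bcas1 (-0.07, -0.28 to 0.15) had intervals that include 0. The 30 cells in the WT-labelled library held 24 Olig2, 11 Nkx2-2 and 64 Enpp6 UMIs, and the intervals of these ratios reach past 1.5-fold.

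The tumour-like cells held some myelin transcripts and nearly lacked others. Mog, a surface protein of myelin, stood at 6.56% (5.88 to 7.34) and 2.48% (2.28 to 2.70) of its oligodendrocyte-like level, and Cldn11, a tight junction protein of myelin, at 2.83% (2.56 to 3.14) and 1.24% (1.12 to 1.38). Mobp, a basic protein of compact myelin, stood at 0.00837% (0.00227 to 0.0215) and 0.0244% (0.0117 to 0.0451), with 4 and 10 UMIs in all tumour-like cells. Of the UMIs of Mog and Mobp together, Mobp made up 0.224% (0.0611 to 0.573) and 1.16% (0.559 to 2.13) in tumour-like cells and 63.8% (60.9 to 66.7) and 54.4% (52.7 to 56.2) in oligodendrocyte-like cells. At the oligodendrocyte-like ratio to Mobp, the 4 Mobp UMIs of the tumour-like cells in the WT-labelled library would go with 1.5 Opalin UMIs (448 counted), 4.13 Mag UMIs (520 counted) and 0.368 Enpp6 UMIs (8 counted). In the KO-labelled library the 10 Mobp UMIs would go with 6.66 Opalin UMIs (23 counted), 14.2 Mag UMIs (136 counted) and 1.22 Enpp6 UMIs (12 counted). Where these UMIs came from was not tested.

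**Figure D4:**
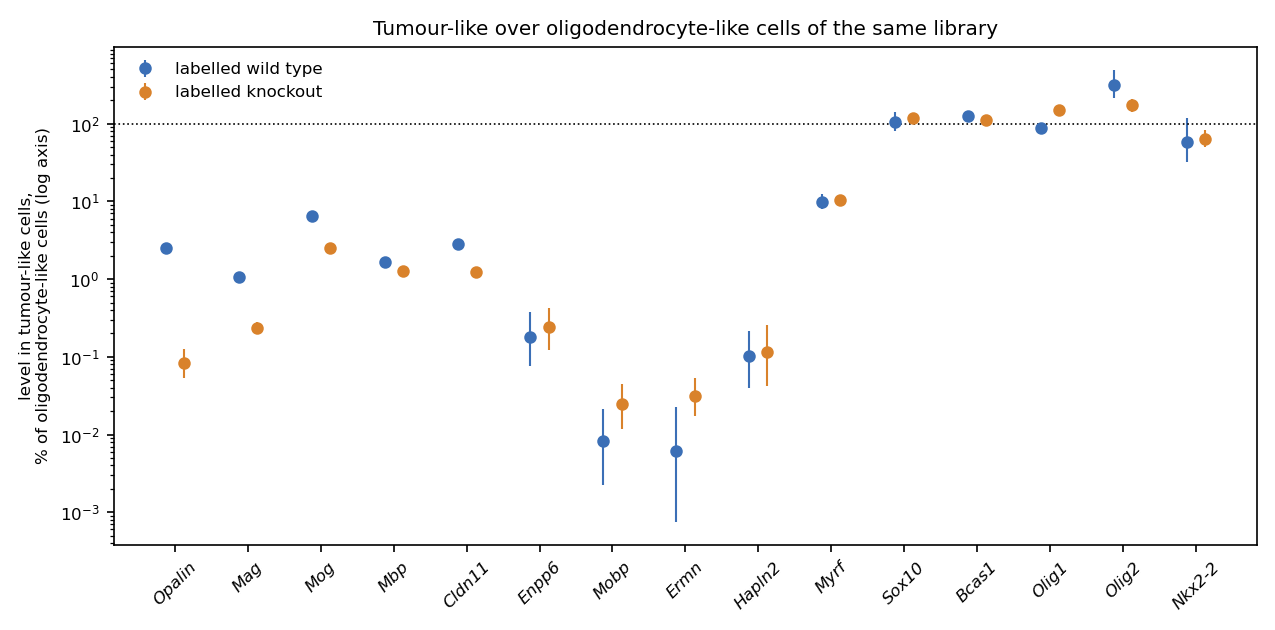
Level in tumour-like cells as a percentage of the level in oligodendrocyte-like cells of the same library, on a log axis with exact 95% intervals, coloured by label (wild type blue, knockout orange), with a dotted line at equal levels. Opalin, Mag and Mog lie between 0.0844% and 6.56%, Enpp6 and Mobp at 0.240% or lower, and Olig1, Olig2, Nkx2-2 and Bcas1 within 58.1% to 318%. In the KO-labelled library Opalin (0.0844%) and Mag (0.234%) are no higher than Enpp6 (0.240%).

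Opalin was carried by few cells. In the WT-labelled library 51 of 680 tumour-like cells had an Opalin UMI, 1 cell held 161 of the 448 UMIs, 4 cells held 50% of them and 10 cells 72.3%. In the KO-labelled library 13 of 1079 cells had 1, with at most 7 UMIs in a cell. Without the cell with the most Opalin in each of the libraries the log2 ratio was -4.70. Mag was spread more widely, over 129 and 61 cells, with at most 20 and 18 UMIs in a cell, and 28 cells held 50% of its UMIs in the WT-labelled library. Thinned to 2000 UMIs, 1.93% (1.03 to 3.27) and 0.287% (0.0591 to 0.835) of tumour-like cells had an Opalin UMI and 4.74% (3.26 to 6.63) and 0.764% (0.330 to 1.49998) a Mag UMI, against 0% and 0% and 0.226% and 0.496% of T and NK cells. The exact upper bounds for the 0 in T and NK cells are 0.415% and 0.166%.

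The 10 cells with the most Opalin all carried the wild type label and lay in clusters 2, 8 and 15. Together they held 324 Opalin, 198 Mog, 1473 Bcas1 and 463 Olig1 UMIs, but 1 Mobp, 1 Enpp6 and 23 Mag UMIs, and 0 UMIs of Ptprc, of Xist and of the Y-linked genes. Host cells of this library had Y-linked transcripts: 26 of 30 oligodendrocyte-like cells had such a UMI, against 5 of the 51 Opalin-positive and 23 of the other 629 tumour-like cells. Ptprc, a gene of leukocytes, was counted in 9.80% of the Opalin-positive and 9.70% of the other tumour-like cells. In the KO-labelled library a UMI of Xist or of a Y-linked gene was counted in 27.9% of the 61 Mag-positive and 11.6% of the 1018 Mag-negative tumour-like cells, and Ptprc in 26.2% and 16.9%. The Mag-positive cells there were also deeper, with a median of 44612 against 26060.5 UMIs, and the part of other cells' RNA in their values was not tested. In the WT-labelled library the same shares were 4.65% and 4.90% for Xist or a Y-linked gene and 10.1% and 9.62% for Ptprc.

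Opalin-positive tumour-like cells in the WT-labelled library differed from the rest in the progenitor gene Pdgfra and in later genes. Cspg4, the other progenitor gene, had a UMI in 39 of these 51 cells and in 511 of all 680 tumour-like cells. Compared with the 629 without an Opalin UMI, their Pdgfra level was lower, 10.4 CPM (6.86 to 15.1) against 34.9 (32.4 to 37.6), and their Gpr17 level higher, 71.3 (61.4 to 82.3) against 43.4 (40.6 to 46.4). Bcas1 stood at 1311 (1267 to 1356) against 772 (759 to 784) and Mog at 167 (152 to 184) against 67.0 (63.5 to 70.7). Olig2 was alike, 222 (205 to 241) against 232 (226 to 239), and Enpp6 stayed at 1 and 7 UMIs. These cells were also deeper, with a median of 44680 against 29715 UMIs, and the cell with the most Opalin held 251 of the 601 Mbp and 68 of the 434 Mog UMIs of the 51. None of the 51 lay in cluster 5. Within cluster 2 the 24 Opalin-positive cells held Gpr17 at 115 (95.8 to 138) against 52.1 (46.5 to 58.2) and Mog at 262 (232 to 295) against 120.0 (111 to 129), whereas the Pdgfra intervals overlapped, 9.46 (4.54 to 17.4) against 19.5 (16.1 to 23.3). In the KO-labelled library the 13 Opalin-positive cells held Bcas1 at 922 (840 to 1010) against 694 (685 to 703), and their Mog, Gpr17 and Pdgfra intervals overlapped those of the rest.

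**Figure D5:**
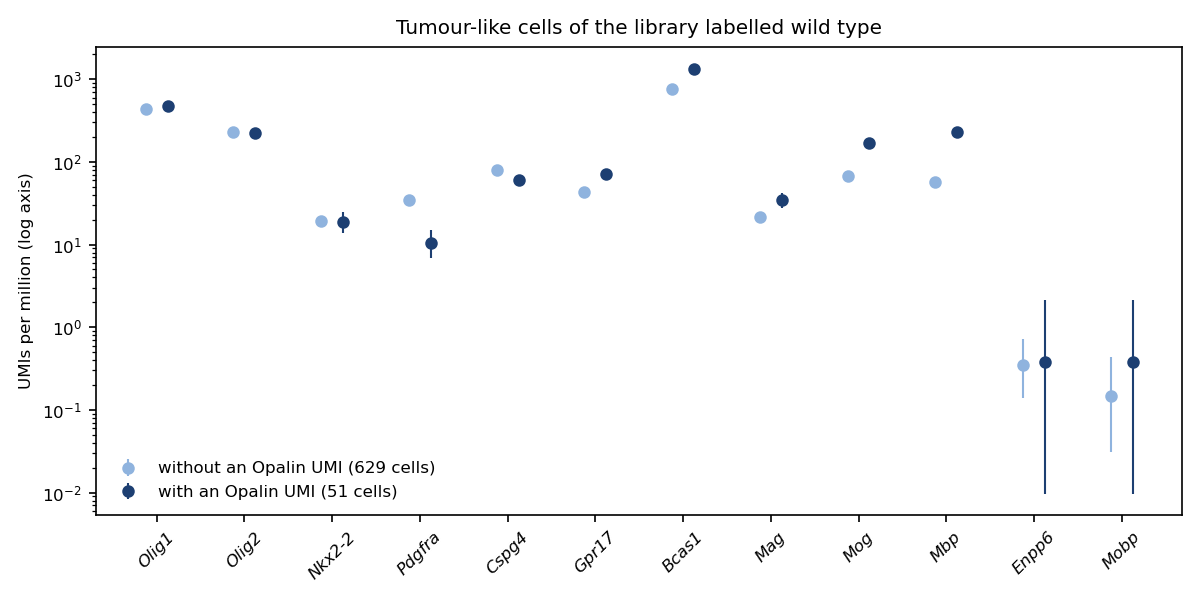
Levels in tumour-like cells in the WT-labelled library with (dark, 51 cells) and without (light, 629 cells) an Opalin UMI, in CPM on a log axis with exact 95% Poisson intervals. Bcas1, Gpr17, Mog and Mbp are higher and Pdgfra is lower (10.4 against 34.9) in the Opalin-positive cells, and Enpp6 and Mobp are near 0 in both.

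Mag-positive tumour-like cells also held more Mbp and Mog, but not detectably less Pdgfra. In the WT-labelled library they held Mbp at 235 CPM (222 to 249) against 28.1 (25.7 to 30.7) in Mag-negative cells, Mog at 205 (193 to 218) against 39.7 (36.8 to 42.8) and Bcas1 at 1418 (1386 to 1451) against 654 (642 to 666). Their Pdgfra level, 34.4 (29.6 to 39.8), overlapped that of the Mag-negative cells, 31.4 (28.8 to 34.1). In the KO-labelled library the 61 Mag-positive cells were likewise higher, with Mbp at 102 against 41.1, Mog at 61.7 against 22.8 and Bcas1 at 1135 against 660, but their Opalin intervals overlapped, with 1 UMI (0.386 CPM) against 22 (0.728). The cells lay in different clusters: in the WT-labelled library 69 of the 129 Mag-positive cells were in cluster 2 and 9 in cluster 8, against 178 and 251 of the 551 Mag-negative cells. Within cluster 2 of this library Mbp stood at 430 (404 to 457) against 48.4 (42.3 to 55.1) and Mog at 296 (275 to 318) against 59.9 (53.1 to 67.4), and Pdgfra was higher in the Mag-positive cells, 24.5 (18.7 to 31.5) against 14.6 (11.3 to 18.4).

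Pairs of the genes were detected in the same tumour-like cells about as often as the product of their shares gives, or somewhat more often. At 2000 UMIs per cell, 23 of the 45 pairs in the WT-labelled library and 18 in the KO-labelled library had a product of at least 5 cells, and the median of observed over product was 1.22 and 1.06. The highest in the WT-labelled library were Olig2 with Mag (16 cells against 9.72, 1.65 times), Bcas1 with Mag (28 against 18.5, 1.51 times) and Cspg4 with Mag (8 against 5.31, 1.51 times), and in the KO-labelled library no pair reached 1.5 times. Olig1 and Olig2 were detected together in 114 and 150 cells, where the products give 94.8 and 126. Without thinning, Pdgfra and Opalin were found together in 12 cells of the WT-labelled library, where the product gives 19.3 (0.623 times). Cspg4 and Opalin were found together there in 39 cells, where it gives 38.3 (1.02 times). Gpr17 and Mag were found together in 85 cells of that library, where it gives 50.1 (1.70 times). In the KO-labelled library Gpr17 and Mag were found together in 24 cells, where it gives 15.04 (1.60 times). Enpp6 was counted in 7 and 11 cells, and its unthinned pairs with a product of at least 5 cells lay on both sides of the product. They ran from Nkx2-2 and Enpp6 in 1 cell where the product gives 5.54 (0.181 times) to Olig2 and Enpp6 in 10 where it gives 8.36 (1.196 times). Both of these pairs were in the KO-labelled library. Cells of 1 library are not replicates, so these ratios describe the libraries.

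Mag was also counted outside the lineage. In macrophages and microglia it stood at 9.87 CPM (8.16 to 11.8) and 11.5 (10.2 to 12.96), against 0.855 (0.344 to 1.76) and 2.13 (1.57 to 2.84) in T and NK cells, while Mog had 2 and 9 UMIs there. Its highest values were in the clusters with the most P2ry12 and Tmem119, genes of microglia: cluster 14 held Mag at 24.0 (12.4 to 41.9) and 20.6 (16.6 to 25.2) and cluster 17 at 17.8 (5.79 to 41.6) and 21.6 (14.6 to 30.9), whereas the macrophage cluster 18 had 0 and 1 Mag UMIs. In the WT-labelled library, where clusters 14 and 17 held 12 and 5 Mag UMIs, the interval of cluster 17 overlaps that of cluster 3, 9.71 (7.58 to 12.2), and the interval of cluster 14 begins close above it. In the mm10 annotation (GENCODE M21) Mag spans chr7:30899176-30914873, minus strand, and Cd22, an immune receptor gene counted at 12.6 and 9.90 CPM in the same class, lies on the same strand 18833 bases downstream of it. In tumour-like cells Cd22 had 3 and 7 UMIs. Any link between the counts of Mag and Cd22 was not tested. The next highest of the 10 in macrophages and microglia was Bcas1, at 6.58 and 5.92.

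A wider list of 93 lineage genes showed which parts of the programme differed. Of these, 70 had at least 100 UMIs in tumour-like cells, 22 of them 1.5-fold or more lower in the KO-labelled library and 14 higher (7.18% and 10.6% of all genes), with a median log2 ratio of 0.05. The myelin genes leaned lower: 11 of 18 were lower and 3 higher, with a median of -0.71. Mog (78.5 and 25.9 CPM) was 3.03-fold lower (2.79 to 3.29), Cldn11 (48.94 and 14.996) was 3.26-fold lower (2.93 to 3.64) and Mbp (76.6 and 45.9) 1.67-fold lower (1.56 to 1.79). T and NK cells held more Mbp than the tumour-like cells, 108.7 and 108.5 CPM, so Mbp counts alone do not mark the lineage here. Mbp was lower in clusters 2, 5 and 15 but 2.10-fold higher (1.61 to 2.74) in cluster 8. Gjc3 (484 and 789) and Trf (42.9 and 66.7), which are also made along the lineage, were higher, at log2 ratios of 0.70 and 0.63. Several of these genes were also lower in the oligodendrocyte-like cells of the KO-labelled library, with log2 ratios of -0.76 for Mobp, -0.59 for Myrf, -0.52 for Cldn11, -0.35 for Mbp and -0.20 for Mog, where the tumour-like values were -1.71 for Cldn11, -0.74 for Mbp and -1.60 for Mog.

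The other groups of the list did not lean as far. Their counts stand against 7.18% of all measured genes that were 1.5-fold or more lower and 10.6% that were higher. Of 14 regulators 2 were lower and 2 higher, with Sox10 (186 and 275 CPM), the factor that drives oligodendrocyte fate, at a log2 ratio of 0.57, Myrf (28.4 and 19.9), which switches on myelin genes, at -0.51, Myt1 at -0.78, Hes5 at 0.77 and Prrx1 at 1.003. Of 13 progenitor genes 5 were lower and 1 higher, among them Cntn1 at -2.15 and Tnr at -1.43, with Pcdh15 at 0.66 and Lhfpl3 at 0.54. Cntn1 is a leading gene of cluster 8, which held 260 and 108 cells, and the part of that share in its ratio was not tested. Of 15 committed genes 3 were lower and 3 higher, with Cyfip2 at -0.85, Lims2 at -0.71, Epb41l2 at 0.43 and Kank1 at 0.97. Of 10 growth factors and receptors 1 was lower and 5 were higher, with Erbb3 at 1.07, Notch1 at 0.68, Igf1r at -0.02 and Pdgfa, a ligand of Pdgfra, at -0.31 (38.5 and 31.1 CPM).

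Over the 46 clusters by library with at least 50 cells, the 10 genes formed 2 sets by their levels on the scale log2(CPM + 10). Among Olig1, Olig2, Nkx2-2, Pdgfra, Cspg4, Gpr17 and Bcas1 the Pearson r of pairs ran from 0.80 to 0.97, and among Enpp6, Opalin and Mag from 0.89 to 0.92, while pairs across the sets ran from -0.09 to 0.50. Only 1 of the 46 points was oligodendrocyte-like, cluster 23 in the KO-labelled library with 73 cells, and the second set rests on it. Over the other 45 points r was 0.08 for Enpp6 and Opalin, 0.27 for Enpp6 and Mag and 0.58 for Opalin and Mag. The 7 genes of the first set kept 0.82 to 0.97. Pairs across the sets then ran from -0.07 (Olig2 and Enpp6) to 0.61 (Gpr17 and Opalin), which is above Opalin and Mag. The points share libraries and classes, and the values describe where the genes are counted. The gene most like Olig1 was Sox10 (0.99), followed by Gjc3 (0.98), and the gene most like Bcas1 was Gjc3 (0.98). Opalin was most like Cyp2j12 (0.99), Mag most like Tppp (0.93), and Enpp6 most like 4930420G21Rik (0.99), all 3 with that point included. For the others the closest were Pcdh17 for Olig2 (0.98), Jam3 for Nkx2-2 (0.98), Twist1 for Pdgfra (0.96), Hspg2 for Cspg4 (0.98) and Slc47a1 for Gpr17 (0.96).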

How the data were processed

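UMI counts per gene and barcode were deposited as sparse matrices made with Cell Ranger 7.1.0, per the submitters' processing notes, which also name Seurat 5.0.2 and mm10. The libraries were made with the 10x Genomics 3' v3.1 kit from enzymatically dissociated brain, per the labels' protocols. The members and lists were chosen with earlier results of these data known.

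Among mouse rows, barcodes needed 500 genes or more and mitochondrial UMIs of 10% or less. Scrublet doublets were removed (2.48% and 2.51% of the barcodes kept by the filter). Its automatic threshold marked 0.257% under the wild type label, below the accepted 0.5%, so there the highest scores were taken up to the expected rate. Both libraries were clustered together (2000 variable genes without the 10 genes, 30 principal components, 15 neighbours, Leiden resolution 1). A cluster was named where at least 3 fixed markers stood at 20 CPM and 4-fold over the median cluster, unless its leading genes or depth spoke against the name. Clusters named microglia or macrophage were pooled, since 2 of the former were led by Ccl24, C1qc and Mmp12 among others. Counts were summed per class and library and scaled to CPM. Intervals are exact Poisson, binomial or conditional ones at 95%, and 3 counts stand for a count of 0. Genes were called by size at 1.5-fold, and no p-value was computed. Sequences came from RefSeq (GRCm38.p6) and positions from GENCODE M21.

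All 10 genes were measured in every class with at least 20 cells in both libraries and are plotted there, with the text giving the values that carry a comparison. For likeness, the 3 genes of highest Pearson r were taken per member. From the lineage list the 2 highest and 2 lowest of each group with at least 20 CPM and 100 UMIs were named, with Mbp, Mog, Mobp, Sox10, Myrf and Pdgfa always, and 2 genes that these rules name are not reported here. Cldn11, Gjc3 and Trf are among these by rule. Cd22 and cluster-level values for Mag were added after the values were seen. The alternatives are filters, doublets, resolution, variable genes, a per-cell marker gate, weighting, thinning and left-out cells. Chosen after seeing the data were leaving out the top cell of each library, each tumour-like cluster in turn, and the oligodendrocyte-like cluster in the likeness measure. The interval code was tested on simulated data. Clustering ran in scanpy 1.11.5 with leidenalg 0.10.2, and intervals in scipy 1.17.1, under Python 3.11.15.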

Additional observations from a re-analysis of the deposited data

Results flagged for a closer look

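Cluster 25 (23 and 54 cells, median 1945 UMIs) carried 10 of 12 tumour markers but was left unnamed because of its few UMIs and no tumour marker among its leading genes, so the comparisons do not use it. Olig1 stood there at 422 and 609 CPM in the libraries labelled wild type and knockout, and Bcas1 at 525 and 406, above their levels in T and NK cells. Opalin had 0 UMIs there in both libraries and Mag 4 and 0.

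Pdgfra was higher under the knockout label in tumour-like cluster 8 (log2 ratio 0.44) and lower in cluster 15 (-0.75), and Bcas1 likewise (0.55 and -1.03). The intervals of each pair do not overlap, but they cover counting error only, and the difference between the clusters was not tested.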

How the results depend on the processing

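The log2 ratio of Opalin kept its direction and stayed 1.5-fold or more lower in all 18 settings (-6.89 to -2.86). Without tumour-like cells holding a UMI of Mog, Mobp or Cldn11, the median log2 ratio of the 10 genes turned to 0.28 and that of Mag to 0.98 (3 and 17 UMIs), with 1 gene lower and 4 higher. That setting removes the cells with myelin transcripts by construction.

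The count of genes at least 1.5-fold higher, 1 as reported, was 0 at resolution 0.5, with each cell weighted alike and without cluster 5. It was 2 with cells thinned to 2000 UMIs and without cells holding a UMI of Ptprc, Tyrobp or Cd3e, and 3 without cluster 2. The median, -0.40 as reported, was -0.24 at resolution 0.5, where only 375 and 233 cells were tumour-like, -0.17 with tumour-like clusters weighted alike and -0.74 after thinning. It was -0.087 without cluster 2, -0.51 without cluster 5 and -0.56 without cluster 8. The cause of these changes was not tested.

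By the per-cell marker gate 1475 cells were tumour cells, 1388 of them tumour-like by cluster, and 103 cells lay just outside and 99 just inside its marker minimum. With 30 UMIs in place of 100, 24 of 75 lineage genes were lower and 16 higher (8.93% and 14.2% of all genes). Shares of cells with a UMI depend on depth by construction. With 1 library per group nothing could be left out as a replicate. No paired analysis was possible because each group has 1 library. Few oligodendrocyte-like cells (30 and 106) limit the comparison with the tumour.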
